A study of Mus musculus with 6 samples.

Results

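The 10 genes described here encode the enzymes that turn membrane arachidonic acid into prostaglandins, thromboxane and leukotrienes, together with one helper protein. They were chosen by name, with earlier results of these data known, and all 10 were found among the 18039 genes of the deposited table. Bulk RNA was sequenced in paired-end mode from macrophages that had been grown out of mouse bone marrow for 7 days with the growth factor M-CSF at 20 ng/mL. There were 3 libraries of the KAT7KO genotype and 3 of the Ctrl genotype, all from cells grown in the same way. KAT7 is a histone acetyltransferase of the MYST family. The labels give neither the strain nor the age of the mice, and they do not say which part of the gene was removed, in which cells, or what the Ctrl mice carried. No inflammatory stimulus is named for any library, so the levels are those of macrophages in culture medium with M-CSF. The labels call the libraries biological replicates without saying whether each came from its own mouse, so the tests below weigh a difference only against the scatter of these 6 libraries.

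Prostanoids and leukotrienes are short-lived lipid signals made on demand from arachidonic acid. Cytosolic phospholipase A2 frees the fatty acid from membranes, and the pathway then divides. On the prostanoid branch, the cyclooxygenases form an unstable endoperoxide that cell type-specific synthases turn into prostaglandin E2, prostaglandin D2, thromboxane A2 or prostacyclin. On the leukotriene branch, 5-lipoxygenase and its activating protein FLAP form leukotriene A4, which is converted either into the chemoattractant leukotriene B4 or into the cysteinyl leukotrienes. Macrophages are known for making all of these classes, and the inducible cyclooxygenase is a classical inflammatory gene.

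The 6 libraries held 19906726 to 20660090 counts. Kat7 RNA stood at 41.4, 42.2 and 38.2 CPM (counts relative to the scaled library size) in KAT7KO and at 73.2, 70.3 and 69.0 CPM in Ctrl. That is 57.3% of Ctrl (log2 fold change -0.80, SE 0.06, adjusted p = 9.63e-07 in edgeR), so RNA from the locus was reduced and not absent in the KAT7KO libraries. Each of 10 macrophage markers was present at 76.0 CPM or more in every library. A gene was called changed at an adjusted p below 0.05 in edgeR's quasi-likelihood test. This held for 2987 of 12483 genes (23.9%), 1335 of them higher (10.7%) and 1652 lower (13.2%) in KAT7KO. With a trend on gene length removed, these counts became 2554 higher and 1521 lower. Ctrl replicate 1 stood apart from the other Ctrl libraries. The mean chi-square per gene between replicates, which is 1 for sampling noise alone, was 12.3 and 21.6 in the pairs with that library, against 3.86 between Ctrl replicates 2 and 3 and 2.68 to 3.48 among KAT7KO libraries. Without it, 1708 genes were higher and 1820 lower, and Ptgs1, Ptgs2, Hpgds and Lta4h still passed, as given below.

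In KAT7KO macrophages, RNA of both cyclooxygenases and of the hematopoietic prostaglandin D synthase was lower than in Ctrl, and RNA of the enzyme that makes leukotriene B4 was higher. Ptgs2 RNA was 37.6% of Ctrl, Ptgs1 75.6% and Hpgds 86.4%, whereas Lta4h stood at 119% of Ctrl. All 10 members passed the filter on low counts. Of these, 3 fell, 1 rose and 6 did not pass the test, beside 23.9% of all genes tested that passed in either direction. A count of 4 of 10 genes is not far from that background, so the description rests on the individual genes. The median log2 fold change of the members was -0.22, against 0.0023 over all genes tested. The libraries of the genotypes did not overlap for 7 members, 5 of them with KAT7KO below Ctrl and 2 with KAT7KO above. Of all genes tested, 41.0% showed no overlap, 21.2% with KAT7KO below and 19.9% with KAT7KO above.

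**Figure D1:**
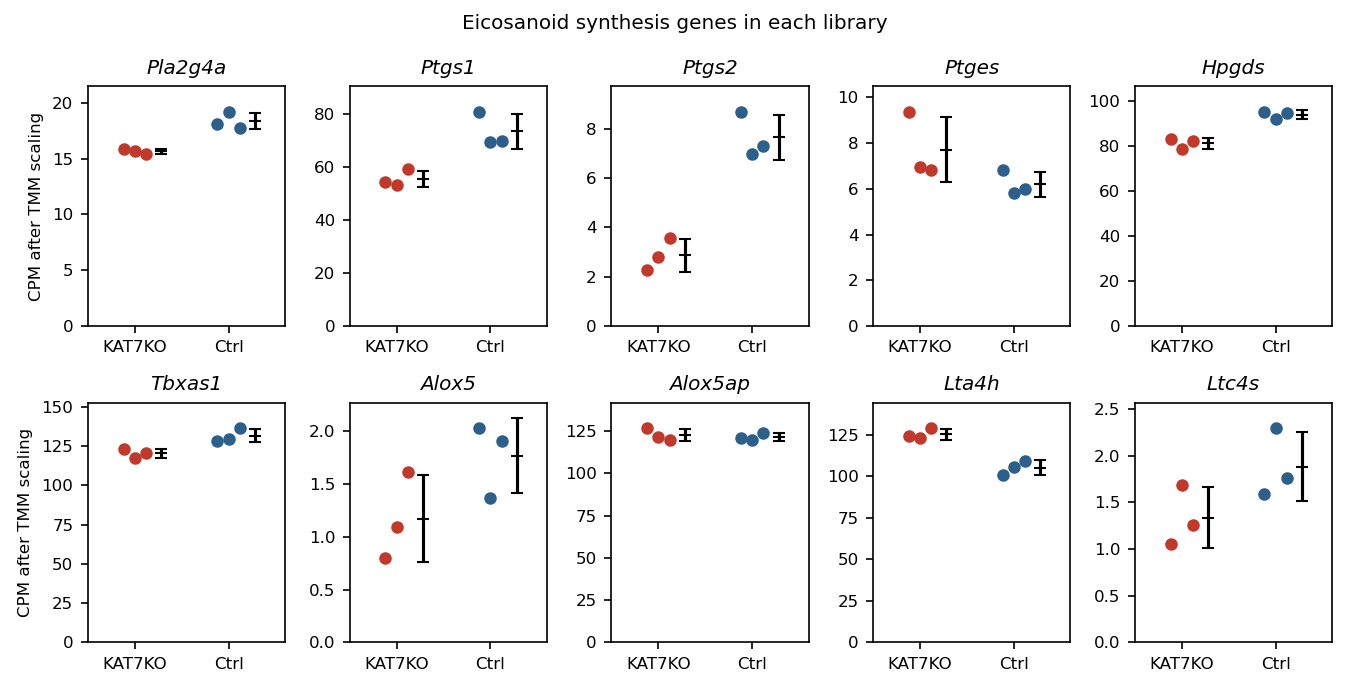
Level of each of the 10 genes in each library, in CPM after TMM scaling, with KAT7KO on the left and Ctrl on the right of each panel. Points are libraries, the black marks give mean ± SD (n = 3), and every axis starts at 0. Ptgs2 shows the widest separation, 2.26 to 3.59 CPM in KAT7KO against 6.99 to 8.70 CPM in Ctrl, while the Alox5, Alox5ap and Ltc4s points overlap.

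Arachidonic acid is released mainly by cytosolic phospholipase A2 alpha, encoded by Pla2g4a (ENSMUSG00000056220). Its RNA stood at 15.8, 15.7 and 15.4 CPM in KAT7KO and at 18.1, 19.2 and 17.8 CPM in Ctrl. All 3 KAT7KO libraries lay below all Ctrl libraries. The log2 fold change of -0.23 (SE 0.08, 95% interval -0.41 to -0.05) nevertheless had an adjusted p of 0.0586 in edgeR and missed the threshold. It passed without Ctrl replicate 1 (log2 fold change -0.24, adjusted p = 0.0491 in edgeR), with upper-quartile factors (adjusted p = 0.0452) and with a filter at 5 CPM (adjusted p = 0.0378), and was -0.14 with the gene-length trend removed (adjusted p = 0.208).

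Both cyclooxygenase genes fell. Ptgs2 (ENSMUSG00000032487), the inducible enzyme COX-2, had 2.26, 2.78 and 3.59 CPM in KAT7KO libraries, against 8.70, 6.99 and 7.30 CPM in Ctrl libraries. The highest KAT7KO value was 51.4% of the lowest Ctrl value. The fitted log2 fold change was -1.41 (SE 0.18, 95% interval 28.9% to 48.8% of Ctrl, adjusted p = 6.99e-05 in edgeR). In raw reads these are 45, 56 and 71 counts in KAT7KO and 180, 143 and 149 counts in Ctrl, so Ptgs2 was a low-level transcript in both genotypes. Leaving out any one library kept its log2 fold change between -1.60 and -1.27.

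Ptgs1 (ENSMUSG00000047250), the constitutive enzyme COX-1, had 54.3, 53.2 and 59.1 CPM in KAT7KO, against 80.9, 69.5 and 70.0 CPM in Ctrl. No KAT7KO library reached the lowest Ctrl library, and the log2 fold change was -0.40 (SE 0.07, 95% interval 68.0% to 84.0% of Ctrl, adjusted p = 0.00104 in edgeR). Ctrl replicate 1 was the highest Ctrl library for both cyclooxygenase genes, and KAT7KO replicate 3 the highest KAT7KO library for both. Without Ctrl replicate 1, Ptgs1 still fell, by 0.33 on the log2 scale (adjusted p = 2.90e-06 in edgeR), and Ptgs2 by 1.31 (adjusted p = 7.44e-08). In the authors' deposited table the log2 fold changes were -1.41 for Ptgs2 and -0.40 for Ptgs1, with adjusted p of 1.17e-08 and 5.72e-05.

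Because levels of different genes can be set side by side only per gene length, the balance between the cyclooxygenases was taken from the authors' FPKM, a measure scaled to gene length and library size. Ptgs2 amounted to 3.52%, 4.44% and 5.15% of the Ptgs1 level in KAT7KO, against 9.11%, 8.52% and 8.84% in Ctrl. Every KAT7KO library lay below every Ctrl library, and library scaling cancels within such a ratio. The difference in mean log2 ratio was -1.03 (-1.01 without Ctrl replicate 1), and the two-sided exact permutation test gave p = 0.1 (0.15 adjusted over the 3 ratios tested), which is the smallest p that 3 libraries against 3 can give. The summed FPKM of both genes was 14.4, 14.2 and 15.9 in KAT7KO and 23.4, 19.4 and 19.4 in Ctrl, almost all of it Ptgs1.

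Start-site sequences of the 4 genes that passed the test are shown so that the letters around the starts of the cyclooxygenase genes can be set beside each other and beside those of Hpgds and Lta4h. Each window is from RefSeq (GRCm38.p6) and runs from 250 bases before to 50 bases after the annotated start, 5′ to 3′ on the gene's own strand. Capitals mark motifs found on either strand.
Ptgs2, chr1:150099781-150100080, plus strand: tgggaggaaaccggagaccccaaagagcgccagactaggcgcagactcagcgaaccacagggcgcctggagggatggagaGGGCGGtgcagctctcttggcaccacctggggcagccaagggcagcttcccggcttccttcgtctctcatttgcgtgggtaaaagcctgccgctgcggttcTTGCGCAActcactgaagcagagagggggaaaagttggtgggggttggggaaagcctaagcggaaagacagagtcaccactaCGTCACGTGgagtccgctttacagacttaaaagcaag
Ptgs1, chr2:36230176-36230475, plus strand: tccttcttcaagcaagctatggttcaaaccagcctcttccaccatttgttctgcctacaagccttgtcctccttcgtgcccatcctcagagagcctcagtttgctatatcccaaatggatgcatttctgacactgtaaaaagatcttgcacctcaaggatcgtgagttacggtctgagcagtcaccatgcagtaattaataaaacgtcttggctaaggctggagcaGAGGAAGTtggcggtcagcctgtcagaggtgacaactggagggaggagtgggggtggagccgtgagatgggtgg
Hpgds, chr6:65144681-65144980, minus strand: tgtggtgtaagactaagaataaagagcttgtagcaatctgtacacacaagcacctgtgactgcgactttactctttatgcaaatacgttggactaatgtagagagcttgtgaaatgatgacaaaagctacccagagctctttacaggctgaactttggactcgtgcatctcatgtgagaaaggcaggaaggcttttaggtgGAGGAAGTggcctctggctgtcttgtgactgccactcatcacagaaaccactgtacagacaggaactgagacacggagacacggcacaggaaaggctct
Lta4h, chr10:93453146-93453445, plus strand: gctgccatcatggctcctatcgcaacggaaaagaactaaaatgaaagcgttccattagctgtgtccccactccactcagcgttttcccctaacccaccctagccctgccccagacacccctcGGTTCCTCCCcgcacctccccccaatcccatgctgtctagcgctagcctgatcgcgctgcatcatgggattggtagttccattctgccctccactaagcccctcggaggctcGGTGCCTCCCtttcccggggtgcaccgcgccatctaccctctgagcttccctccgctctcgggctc
Of the 10 members, 9 had an entry in the RefSeq table. The Ptgs2 window held a CRE half-site, CGTCA, whose last bases overlap an E-box, CACGTG, in the run CGTCACGTG from base 14 to base 22 after the start. It also held the C/EBP-type palindrome TTGCGCAA at bases -69 to -62 and a GC box, GGGCGG, at bases -170 to -165. Elements for C/EBP and CREB factors are well known from studies of this promoter. The bases given here count from the annotated start and were not matched to the positions or the start used in those studies. Among all 32851 promoter windows, 20.8% held CGTCA, 7.15% held CACGTG, 0.183% held TTGCGCAA and 35.7% held GGGCGG. No window of the other 8 members with an entry held the CRE half-site, the E-box or the C/EBP-type palindrome. The Ptgs1 window held none of these 4 motifs and a single ETS/PU.1-type match, GAGGAAGT, at bases -24 to -17. Hpgds held the same GAGGAAGT at bases -49 to -42, and 3.20% of all windows held it. The Lta4h window held a pair of NF-kB-type matches (GGGA, then 4 bases of any kind, then CC), both on the opposite strand, at bases -128 to -119 and -16 to -7. At least 1 such match stood in 20.7% of all windows. The Ptgs2 window had 16 CpG dinucleotides, the Lta4h window 16, the Ptgs1 window 6 and the Hpgds window 5, against a median of 7 over all windows. The other motifs searched were TATAAA, present in 13.6% of all windows, and TGANTCA, present in 7.81%, and neither was found in these 4 windows. Matches describe letters and were not tested as binding sites.

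On chromosome 1 the protein-coding genes next to Ptgs2 in the RefSeq order are Pla2g4a on one side and Pdc on the other, so the phospholipase and the inducible cyclooxygenase are neighbours. The antisense transcript Ptgs2os had 4, 8 and 1 counts in KAT7KO and 0, 1 and 4 counts in Ctrl, and Ptgs2os2 had 1, 1 and 3 counts in KAT7KO and 0, 6 and 4 counts in Ctrl. Both were too low to be tested.

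Of the prostanoid synthase genes, 1 fell and 2 did not pass. Hpgds (ENSMUSG00000029919) encodes the hematopoietic prostaglandin D synthase of macrophages, mast cells and megakaryocytes. It had 83.2, 78.7 and 82.2 CPM in KAT7KO libraries and 95.4, 92.0 and 94.99 CPM in Ctrl libraries, with no overlap and little spread within a genotype. Hpgds fell by 0.21 on the log2 scale (SE 0.05, 95% interval 80.0% to 93.4% of Ctrl, adjusted p = 0.0100 in edgeR). Without Ctrl replicate 1 the value was -0.20 (adjusted p = 5.63e-04). Its call was lost when the gene-length trend was removed (log2 fold change -0.12, adjusted p = 0.0619 in edgeR) and without KAT7KO replicate 2 (-0.19, adjusted p = 0.0676).

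Tbxas1 (ENSMUSG00000029925), thromboxane A synthase, stood at 123, 118 and 121 CPM in KAT7KO and at 128, 130 and 136 CPM in Ctrl. The genotypes did not overlap, but the log2 fold change was only -0.13 (95% interval 85.0% to 98.7% of Ctrl, adjusted p = 0.0820 in edgeR) and did not pass. Without Ctrl replicate 1 it passed (-0.15, adjusted p = 0.00697 in edgeR), as it did with the filter at 5 CPM (adjusted p = 0.0429). With the gene-length trend removed it was -0.020 (adjusted p = 0.793). Tbxas1 overlaps Hipk2 on the opposite strand, a gene with 11499 counts over the 6 libraries. The strand setting of the counting is not given in the sources used here, so reads in the overlap cannot be assigned with certainty.

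Ptges (ENSMUSG00000050737), the microsomal prostaglandin E synthase that is often induced together with Ptgs2, had 9.38, 6.96 and 6.82 CPM in KAT7KO, against 6.81, 5.81 and 5.97 CPM in Ctrl. KAT7KO replicate 1 stood well above the other libraries, and the lowest KAT7KO value lay just above the highest Ctrl value. The log2 fold change of 0.32 (95% interval 99.8% to 155% of Ctrl) had an adjusted p of 0.141 in edgeR and did not pass. Without KAT7KO replicate 1 it was 0.15 (adjusted p = 0.531). 

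On the leukotriene branch, RNA for the first step did not pass the test in either of its genes. Alox5 (ENSMUSG00000025701), which encodes 5-lipoxygenase, was the least abundant member, with 0.802, 1.09 and 1.62 CPM in KAT7KO and 2.03, 1.37 and 1.91 CPM in Ctrl. These are 16, 22 and 32 counts in KAT7KO, against 42, 28 and 39 counts in Ctrl, and the groups overlap. At this depth the log2 fold change of -0.59 came with a wide 95% interval, 42.2% to 104% of Ctrl (adjusted p = 0.173 in edgeR), and no difference was detectable. Alox5ap (ENSMUSG00000060063), which encodes FLAP, the membrane protein that presents arachidonic acid to 5-lipoxygenase, was the most abundant member per length. It had 127, 121 and 120 CPM in KAT7KO and 121, 120 and 124 CPM in Ctrl. The libraries were interleaved, and the log2 fold change was 0.012, with a 95% interval of 93.7% to 109% of Ctrl (adjusted p = 0.882 in edgeR).

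Lta4h and Ltc4s stand at the fork where leukotriene A4 is used. Lta4h (ENSMUSG00000015889), leukotriene A4 hydrolase, makes leukotriene B4 and was the only member that rose. It had 124, 123 and 129 CPM in KAT7KO libraries, against 101, 106 and 109 CPM in Ctrl libraries. All KAT7KO libraries lay above all Ctrl libraries. Lta4h rose by 0.25 on the log2 scale (SE 0.05, 95% interval 110% to 129% of Ctrl, adjusted p = 0.00330 in edgeR), and it passed with each of the 14 alternative settings, the 6 that leave out a library included. Without Ctrl replicate 1 it was 0.22 (adjusted p = 6.95e-05 in edgeR). Ltc4s (ENSMUSG00000020377), leukotriene C4 synthase, makes the first cysteinyl leukotriene by joining glutathione to leukotriene A4. It had 1.05, 1.69 and 1.26 CPM in KAT7KO and 1.59, 2.30 and 1.76 CPM in Ctrl, from 21, 34 and 25 counts in KAT7KO and 33, 47 and 36 counts in Ctrl. The gene Gm26542 overlaps Ltc4s on the opposite strand and had 36 counts in all, so a few reads could belong to either. KAT7KO replicate 2 reached above Ctrl replicate 1, and the log2 fold change of -0.49 (95% interval 47.4% to 106% of Ctrl) did not pass (adjusted p = 0.208 in edgeR).

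The ratio of Ltc4s to Lta4h on the FPKM scale was 5.11%, 8.29% and 5.90% in KAT7KO, against 9.54%, 13.1% and 9.69% in Ctrl. The libraries did not overlap, the difference in mean log2 ratio was -0.76 (-0.84 without Ctrl replicate 1), and the two-sided exact permutation p was 0.1, the smallest possible (0.15 adjusted over the 3 ratios). For Alox5 to Alox5ap the ratio was 0.219%, 0.311% and 0.467% in KAT7KO and 0.580%, 0.395% and 0.532% in Ctrl. These values overlap, and the exact permutation p was 0.2.

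**Figure D2:**
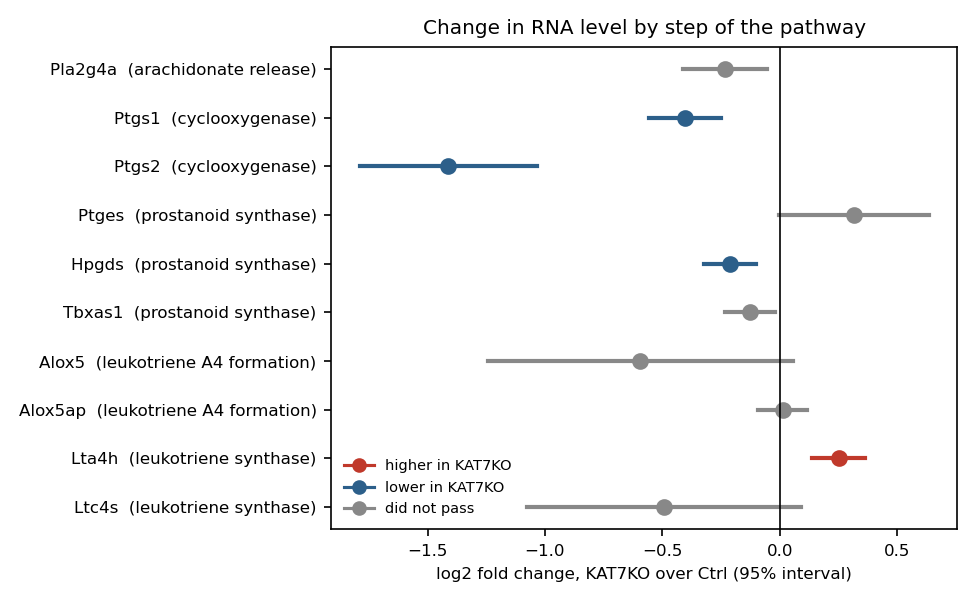
Log2 fold change of each gene, KAT7KO over Ctrl, with its 95% interval from edgeR, ordered from arachidonate release at the top to the leukotriene synthases at the bottom. Blue marks genes that fell (Ptgs1, Ptgs2, Hpgds), red the gene that rose (Lta4h) and grey genes that did not pass. The wide intervals of Alox5 and Ltc4s go with their low counts.

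The members differed far more from each other than between the genotypes. On the authors' FPKM scale, the mean level of Alox5ap was 85.8 ± 2.52 in KAT7KO and 86.1 ± 1.86 in Ctrl (SD, n = 3), and that of Alox5 was 0.283 ± 0.1002 in KAT7KO and 0.434 ± 0.0912 in Ctrl. FLAP RNA was therefore 303-fold above 5-lipoxygenase RNA in KAT7KO and 199-fold above it in Ctrl. Between these ends lay a middle tier of Lta4h, Ptgs1, Tbxas1 and Hpgds, with means of 12.6 to 20.4 FPKM in KAT7KO and 14.5 to 19.1 FPKM in Ctrl. A low tier held Pla2g4a, Ptges, Ltc4s and Ptgs2, with means of 0.624 to 2.43 FPKM in KAT7KO and 1.59 to 2.89 FPKM in Ctrl.

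The order within the tiers was not the same in both genotypes. In KAT7KO, Lta4h (20.4 FPKM) stood above Ptgs1 (14.2 FPKM), with no overlap of the 3 libraries. In Ctrl, Ptgs1 (19.1 FPKM) stood above Lta4h (17.3 FPKM), but the libraries barely separated. The lowest Ptgs1 value in Ctrl was 17.81 FPKM and the highest Lta4h value 17.73 FPKM. Ctrl replicate 1, at 21.5 FPKM, raised the Ctrl mean of Ptgs1. Ptgs2 (0.624 FPKM) was below both Ltc4s and Ptges in KAT7KO with no overlap. In Ctrl the libraries of Ltc4s overlapped those of Ptgs2, and those of Ptgs2 overlapped those of Ptges, so these neighbours were not separated there. Tbxas1 and Hpgds overlapped in both genotypes.

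**Figure D3:**
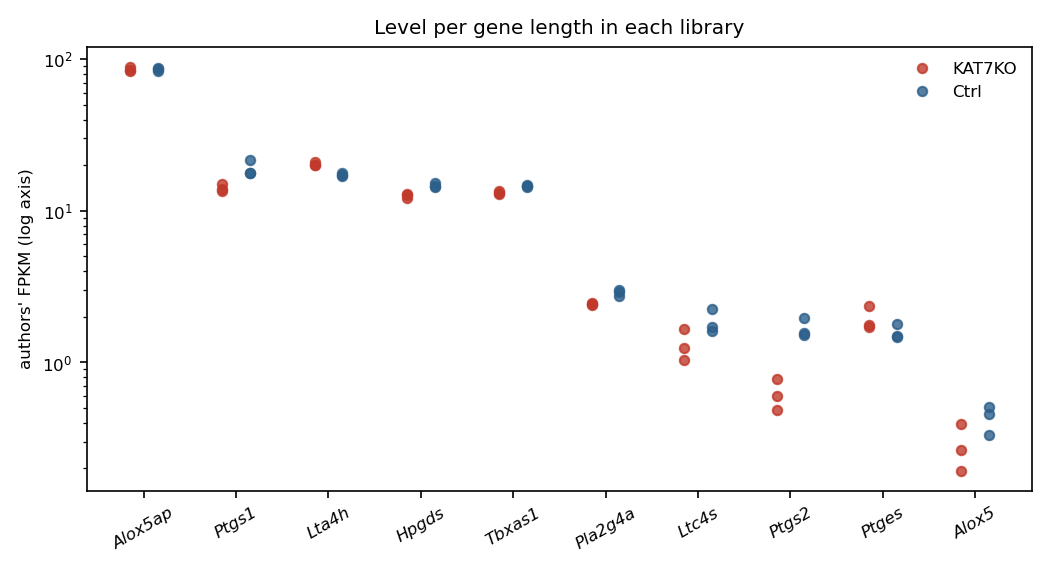
Level of each gene per gene length in each library, as the authors' FPKM on a log axis, ordered by the Ctrl mean, with KAT7KO points left of Ctrl points. Alox5ap lies near 86 FPKM in both genotypes, and Ptgs2 and Alox5 are the lowest in KAT7KO.

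Other cells in a marrow culture can also carry these RNAs, and in bulk RNA fewer cells of a type cannot be told apart from less RNA per cell. Of the 10 macrophage markers, 3 fell and 0 rose, and their sum was 22560 to 23390 CPM in KAT7KO and 27826 to 37567 CPM in Ctrl, most of it Lyz2 (17980 CPM in KAT7KO, 28852 CPM in Ctrl). Stromal cells, which are known to express cyclooxygenases, were represented by 7 markers that summed to 763 to 783 CPM in KAT7KO and 853 to 1088 CPM in Ctrl, and 3 of the 7 fell and 0 rose. The highest levels were those of Col1a2 (284 CPM in KAT7KO, 323 CPM in Ctrl) and Col1a1 (226 CPM in KAT7KO, 305 CPM in Ctrl). Col1a1, Dcn and Pdgfra fell, while Col1a2 did not pass (adjusted p = 0.129 in edgeR). Col3a1 was level (70.0 CPM in KAT7KO, 69.9 CPM in Ctrl). Lum (4.21 CPM in KAT7KO, 4.08 CPM in Ctrl) and Pdgfrb (2.71 and 2.14 CPM) lay higher in KAT7KO without passing. Ctrl replicate 1 had the highest stromal sum, 1088 CPM, as well as the highest Ptgs1 and Ptgs2 values. Ctrl replicates 2 and 3 had stromal sums of 926 and 853 CPM, also above every KAT7KO library. Leaving out Ctrl replicate 1, as done above, therefore does not remove the difference in the stromal sum. The sum does not stand for each marker. Col1a2 in Ctrl replicate 3 (283.8 CPM) lay below KAT7KO replicate 2 (286.1 CPM). Col3a1 in Ctrl replicates 2 and 3 (68.7 and 61.3 CPM) lay below every KAT7KO library (68.8 to 71.3 CPM). The part of stromal RNA in the Ptgs1 and Ptgs2 values was not tested.

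Megakaryocytes and platelets are rich in Ptgs1 and Tbxas1. The 5 megakaryocyte markers in the table summed to 79.6 to 80.7 CPM in KAT7KO and to 90.1 to 101 CPM in Ctrl, and 1 of the 2 tested fell. Nearly all of that sum came from Pf4 (37.6 CPM in KAT7KO, 58.7 CPM in Ctrl) and Vwf (41.8 CPM in KAT7KO, 37.2 CPM in Ctrl), while the other 3 were each below 1 CPM on average. Mast cells are a known source of Hpgds and Ltc4s. Their 9 markers in the table summed to 4.38 to 5.11 CPM in KAT7KO and 5.78 to 7.10 CPM in Ctrl, with 1 of the 5 tested lower and 0 higher, and 7 of the 9 averaged less than 1 CPM. Neutrophils and eosinophils carry leukotriene enzymes. The 8 neutrophil markers in the table summed to 13.2 to 13.7 CPM in KAT7KO and 9.62 to 9.99 CPM in Ctrl. Most of that was S100a8, the 1 of 2 tested that rose, and the higher sum came from it. Prtn3, the other tested, lay lower in KAT7KO (1.82 CPM, against 2.53 CPM in Ctrl) and did not pass. Among those not tested, Cxcr2 (0.0834 CPM in KAT7KO, 0.551 CPM in Ctrl), Ltf (0.201 and 0.374 CPM) and Mpo also lay lower in KAT7KO. Elane (0.285 and 0.179 CPM), Camp and Ngp lay higher. The 3 eosinophil markers summed to 6.81 to 7.77 CPM in KAT7KO and 7.93 to 8.99 CPM in Ctrl, nearly all of it Siglecf. The 4 endothelial markers in the table summed to 13.3 to 14.0 CPM in KAT7KO and 16.1 to 21.5 CPM in Ctrl, highest in Ctrl replicate 1. Nearly all of that sum was Kdr, the 1 tested, which fell (12.9 CPM in KAT7KO, 18.2 CPM in Ctrl). The other 3 each averaged less than 1 CPM. Of these, Cdh5 (0.550 CPM in KAT7KO, 0.211 CPM in Ctrl) and Tek (0.0501 and 0 CPM) lay higher in KAT7KO, and Pecam1 (0.134 and 0.147 CPM) lower. The 6 B-cell markers summed to 4.62 to 6.17 CPM in KAT7KO and 2.56 to 3.91 CPM in Ctrl, with 1 of the 3 tested higher and 0 lower. Dendritic cell markers summed to 2.31 to 2.88 CPM in KAT7KO and 2.01 to 3.71 CPM in Ctrl, and those of basophils and of T and NK cells to less than 1 CPM in every library. The part of these cells in the members' values was not tested.

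Beyond the 10 enzymes, 107 further genes of eicosanoid metabolism were found in the table and 85 of them had enough counts to be tested. Of these, 7 rose, 15 fell and 63 did not pass, so 25.9% passed, beside 23.9% of all genes tested. Their median log2 fold change was -0.016. A share of 25.9% is close to that background. With the gene-length trend removed the balance turned, with 18 higher and 13 lower. Without Ctrl replicate 1 the lists held 10 higher and 15 lower.

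Among 8 tested genes of other phospholipases A2, 1 fell and 0 rose. That gene was Pla2g2e, a secreted phospholipase, with 0.552 CPM in KAT7KO and 1.89 CPM in Ctrl (log2 fold change -1.76, adjusted p = 0.00309 in edgeR). Pla2g7, which inactivates platelet-activating factor, was the most abundant, at 548 CPM in KAT7KO and 572 CPM in Ctrl, and did not pass (adjusted p = 0.366). Among 8 tested genes of other prostanoid synthases and carbonyl reductases 1 fell, the aldo-keto reductase Akr1b8 (26.6 CPM in KAT7KO, 40.8 CPM in Ctrl, log2 fold change -0.62, adjusted p = 2.20e-04 in edgeR). Akr1b3, also an aldo-keto reductase, had 126 CPM in KAT7KO and 130 CPM in Ctrl and did not pass. The aldo-keto reductases resemble each other, so reads could be shared among them.

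Arachidonic acid is also held in, and released from, other lipids. Of 19 tested genes of that list 2 rose and 4 fell. Mgll, monoacylglycerol lipase, frees arachidonic acid from the endocannabinoid 2-arachidonoylglycerol. It averaged 23.5 ± 1.02 CPM in KAT7KO and 77.9 ± 3.36 CPM in Ctrl (SD, n = 3), a log2 fold change of -1.73 (SE 0.07, adjusted p = 9.71e-10 in edgeR), larger than that of any of the 10 enzymes. Among acyltransferases that put fatty acids back into phospholipids, Agpat3 fell (35.8 CPM in KAT7KO, 51.2 CPM in Ctrl, -0.52) and Lpcat4 fell (5.75 CPM in KAT7KO, 8.22 CPM in Ctrl, -0.51), while Lpcat2 rose (37.2 CPM in KAT7KO, 25.8 CPM in Ctrl, 0.53). The other genes of this list that passed, named here after their values were seen, were Abhd12, another lipase of 2-arachidonoylglycerol, which rose (416 CPM in KAT7KO, 373 CPM in Ctrl, 0.16), and Fads2, a desaturase on the route to arachidonic acid, which fell (18.4 CPM in KAT7KO, 23.0 CPM in Ctrl, -0.32). Abhd12 missed the threshold with upper-quartile factors (adjusted p = 0.0530 in edgeR), with a filter at 5 CPM (0.0510), without KAT7KO replicates 1, 2 or 3 (0.137, 0.102 and 0.119) and without Ctrl replicate 2 (0.0869). Fads2 missed it without KAT7KO replicate 1 (adjusted p = 0.0649) and without KAT7KO replicate 2 (0.101). Lpcat4 lost its call without KAT7KO replicate 1 (adjusted p = 0.0575), without KAT7KO replicate 2 (adjusted p = 0.0649) and without Ctrl replicate 2 (adjusted p = 0.0526).

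Of 7 tested relatives and partners of the leukotriene enzymes, 2 rose and 0 fell. Mgst1, a microsomal glutathione transferase of the same protein family as leukotriene C4 synthase and FLAP, had 276 CPM in KAT7KO and 202 CPM in Ctrl (log2 fold change 0.45, adjusted p = 3.06e-04 in edgeR). Gpx4, the glutathione peroxidase that reduces lipid hydroperoxides, had 689 CPM in KAT7KO and 489 CPM in Ctrl (0.49, adjusted p = 0.00806), and missed the threshold with no filter on low counts (adjusted p = 0.0602). The other lipoxygenase genes in the table, Alox15, Alox12, Alox12b, Alox12e and Aloxe3, had too few counts to be tested. Alox15 averaged 0.0499 CPM in KAT7KO and 0.114 CPM in Ctrl, less than the 0.145 to 0.152 CPM that 3 counts in a library amount to.

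Genes of inactivation and export gave 1 higher and 3 lower of 13 tested. Cyp4f13 rose (27.1 CPM in KAT7KO, 20.8 CPM in Ctrl, log2 fold change 0.38) and Cyp4f16 fell (24.2 CPM in KAT7KO, 29.7 CPM in Ctrl, -0.30). Both belong to a cytochrome P450 family known for omega-hydroxylation of fatty acids, whose copies are similar enough that reads could be shared. The export pumps Abcc1, a carrier of leukotriene C4, and Abcc4, a carrier of prostaglandins, fell by 0.26 and 0.29 on the log2 scale. With the gene-length trend removed neither pump passed, Abcc1 at -0.12 (adjusted p = 0.0653 in edgeR) and Abcc4 at -0.20 (adjusted p = 0.0818). Without KAT7KO replicate 1, Abcc1 (adjusted p = 0.0518), Abcc4 (0.124) and Cyp4f16 (0.0719) missed the threshold. Cyp4f16 also missed it without KAT7KO replicate 3 (0.0504), and Abcc4 without KAT7KO replicate 2 (0.0671), without KAT7KO replicate 3 (0.0910), without Ctrl replicate 1 (0.0722) and in DESeq2 (0.0748).

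Among receptors, 1 of 7 tested genes rose and 0 fell. Ptgir, the prostacyclin receptor, which raises cyclic AMP, had 69.7, 75.7 and 71.8 CPM in KAT7KO, against 39.5, 39.6 and 40.4 CPM in Ctrl. The genotypes were far apart beside the spread within each, with a log2 fold change of 0.86 (SE 0.06, adjusted p = 3.19e-07 in edgeR). Ptger4, a prostaglandin E2 receptor that signals through the same messenger, had 17.1 CPM in KAT7KO and 15.6 CPM in Ctrl and did not pass (adjusted p = 0.300).

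Of 23 tested regulators of the Ptgs2 transcript and of cytosolic phospholipase A2, 1 rose and 6 fell. The immediate-early factors Fos (12.4 CPM in KAT7KO, 19.9 CPM in Ctrl, log2 fold change -0.68) and Egr1 (10.1 CPM in KAT7KO, 16.1 CPM in Ctrl, -0.67) fell. So did Dusp6, a phosphatase for ERK kinases that is itself induced by ERK signalling (19.4 CPM in KAT7KO, 29.8 CPM in Ctrl, -0.62), and Anxa1, annexin A1, known as an inhibitor of phospholipase A2 (487 CPM in KAT7KO, 629 CPM in Ctrl, -0.37). Also past the threshold, and likewise named after their values were seen, were Jun, a partner of Fos in AP-1, which fell (195 CPM in KAT7KO, 233 CPM in Ctrl, -0.25), and genes of RNA-binding proteins known to destabilise AU-rich transcripts. Of these, Zfp36 fell (66.5 CPM in KAT7KO, 82.3 CPM in Ctrl, -0.31) and Zfp36l1 rose (61.4 CPM in KAT7KO, 51.4 CPM in Ctrl, 0.25). Zfp36l1 missed the threshold without KAT7KO replicate 1 (adjusted p = 0.0766 in edgeR) and without KAT7KO replicate 3 (adjusted p = 0.0861).

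**Figure D4:**
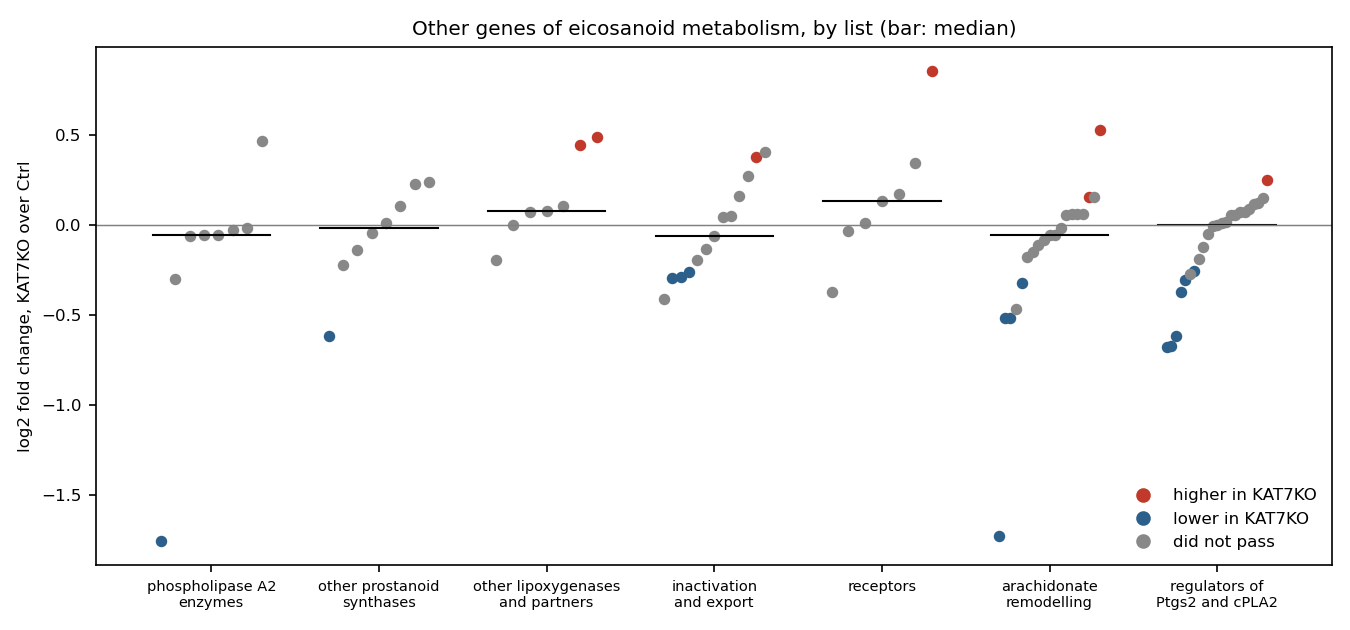
Log2 fold change, KAT7KO over Ctrl, of the 85 other tested genes of eicosanoid metabolism, grouped by role, with 1 point per gene and a bar at the median of each list. Red and blue points passed the test and grey points did not. The lowest points are Pla2g2e (-1.76) and Mgll (-1.73), and the highest is Ptgir (0.86). The Pla2g2e point rests on only 7 to 51 counts per library.

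For each member that passed, the genes with the most similar profile over the 6 libraries were looked up by Pearson's r of log2 CPM among 11046 named genes with a mean of at least 1 CPM. For Ptgs2 these were Gnb4 (r = 0.998), Jcad (0.997) and Spag5 (0.997), with log2 fold changes of -1.17, -1.19 and -1.11. For Ptgs1 they were Sh3pxd2a, Spred2 and Zfp36 (each 0.997). For Hpgds they were Arap3, Kcnq1 and Cdk20 (0.995, 0.994 and 0.993), and for Lta4h Ddrgk1, Tbc1d15 and Tmem250-ps (0.997, 0.996 and 0.995). Over only 6 libraries such values are common, and 362 genes exceeded 0.95 with Ptgs2. The profiles include the difference between the genotypes.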

How the data were processed

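All 6 libraries were read from a single deposited table. The authors deposited raw gene counts as whole numbers, without scaling, and, per the file headers, FPKM for the same libraries. The table also carries the authors' deposited log2 fold change, p-value and adjusted p-value for each gene. The submitters' processing notes name FastQC, fastp, HISAT2, featureCounts, DESeq2 and GRCm39. How strands and multiply mapped reads were handled is not given in the sources used here.

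From these counts, genes kept by filterByExpr were scaled by TMM and fitted in edgeR 4.0.16 (R 4.3.3; robust quasi-likelihood F test, genotype only), and p-values were adjusted by Benjamini-Hochberg across all of them. A standard error is the fold change over the root of F, and intervals are at 95%. Levels are CPM with TMM factors (SD, n = 3). FPKM ratios were compared by an exact permutation test. Replicates of a genotype differed by more than sampling noise (mean chi-square of 2.68 to 21.6 per gene). A symbol on more than one row was read from the row with more counts. Promoters and gene order came from RefSeq GRCm38.p6, and overlaps from a GENCODE annotation of GRCm38.

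Named genes were the 10 members, Kat7, up to 4 called genes of each pathway list by p (filled to 2 by level) and the 3 closest profiles of each called member. Members and lists were chosen with earlier results of these data known. The alternatives were DESeq2 size factors, upper-quartile factors, no filter, a minimum of 5 CPM in 3 libraries, limma-voom (limma 3.58.1), DESeq2 1.42.0, the replicate number as a block, a loess trend on gene length removed (span 0.5; also tried earlier on these data), and each library left out.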

Additional observations from a re-analysis of the deposited data

How the results depend on the processing

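Ptgs2, Ptgs1 and Lta4h kept their direction and stayed past the threshold in each of the 14 alternatives. The members that fell numbered 5 with a filter at 5 CPM and 2 with the gene-length trend removed. With one library left out they numbered 2 to 5, the 2 without KAT7KO replicate 2 and the 5 without Ctrl replicate 1. Alox5ap, near no change, turned to -0.0043 with upper-quartile factors, -0.0072 at 5 CPM and -0.052 with the length trend removed, and ranged from -0.014 (without KAT7KO replicate 1) through -0.00079 (without Ctrl replicate 2) to 0.032 with one library left out. Akr1b3 turned to 0.059 with the length trend removed. Removing that trend moved the median log2 fold change of all genes to 0.059 and gave 2554 genes higher, and 18 higher and 13 lower on the pathway lists. Leaving out one library gave 663 to 1708 genes higher and 1071 to 1820 lower. The higher count was 715, 663 and 740 without KAT7KO replicates 1, 2 and 3 and 834 without Ctrl replicate 2, and the lower count was 1071 without KAT7KO replicate 2 and also without KAT7KO replicate 3. The pathway lists then gave 5 to 10 higher and 10 to 17 lower. The log2 difference of the Ptgs2 to Ptgs1 ratio was -1.16 to -0.88, of Alox5 to Alox5ap -0.93 to -0.38 (the last without KAT7KO replicate 1) and of Ltc4s to Lta4h -0.96 to -0.61, a setting chosen after seeing the data. The cause was not tested. Alox5, Ltc4s and Pla2g2e had no value at 5 CPM. The 16 to 47 counts per library of Alox5 and Ltc4s limit what can be detected, as do the 7 to 51 counts of Pla2g2e.

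Replicate numbers did not pair the libraries: same-numbered libraries had correlations of their deviations between -0.0044 and 0.021, and 3 of 6 correlated best with their own number. With the replicate number as a block, 1290 genes were higher and 1522 lower, 1 member rose and 3 fell, and 6 pathway genes were higher and 15 lower, with Abhd12 missing the threshold (adjusted p = 0.0565 in edgeR) and no other named gene changing its call.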
